A study of Caenorhabditis elegans with 83 samples.

Results

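The nuclear hormone receptor genes of Caenorhabditis elegans are described here by where 3 chromatin factors bound near them. Members were the protein-coding genes whose symbol was nhr- followed by a number, with 3 further receptor genes left out. They came to 266 genes of 19985 protein-coding genes on the WBcel235 genome. A receptor was called bound in a peak list if any peak overlapped its promoter window, which reached 2000 bp upstream and 500 bp downstream of the gene start. Binding in at least 1 of 22 lists was recorded at 153 members, or 57.5%, against 59.7% of all protein-coding genes, and 113 members had no peak in any list.

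Binding was measured by CUT&RUN, in which an antibody guides a nuclease to release the DNA beside a bound protein, in whole day 1 adult hermaphrodites grown for about 48 h at 25 °C. The factors carried tags knocked into their own genes: SET-26 the allele rwIs27[set-26::ha], HCF-1 rwIs33[hcf-1::gfp::3xflag] and HDA-1 syb5185[hda-1::gfp::ha]. The settings were germline-less glp-1(e2141) mutants on OP50 bacteria, worms left without a germline by glp-1 RNAi, wild type whole worms on OP50, and worms on the empty RNAi vector L4440, which keep a germline. HCF-1 and HDA-1 were also profiled in set-26(tm2467) mutants, and SET-26 and HDA-1 in hcf-1(pk924) mutants. HCF-1 in set-26(tm2467) was taken in glp-1(e2141), with glp-1 RNAi and on L4440, and the other mutant combinations with glp-1 RNAi and on L4440. All factor strains carried the tag, mutants included. The control worms for the mutants carried the tag without set-26(tm2467) or hcf-1(pk924), and with glp-1(e2141) in that setting. In 6 lists a factor was set against the HA or FLAG antibody in untagged worms, and in 16 against histone H3 of the same genotype. The SET-26 and HDA-1 lists of glp-1(e2141) shared the HA background samples. The 83 samples formed 41 groups, 40 of 2 replicates and 1 of 3, and each list was called on merged replicates, so every value below lacks a replicate error and no test between lists could be run. The merged libraries contained between 27.6 and 71.5 M tags for the factors and between 27.1 and 85.6 M for the controls. Peak lists hold no transcript levels, so neither the mutations nor the lack of a germline was checked in them.

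Nuclear hormone receptors are transcription factors that pair a zinc finger DNA-binding domain with a ligand-binding domain, and many change the genes they act on when a sterol, fatty acid or other small molecule binds. The worm family is far larger than that of flies or mammals, and most of its genes descend from an ancestor related to HNF4, a mammalian regulator of liver and gut metabolism. In worms, receptors with known roles act in fat and sterol metabolism, detoxification, moulting and development. SET-26 is a reader of trimethylated lysine on histone H3, HCF-1 is an adapter protein with a human counterpart of the same name, and HDA-1 belongs to the histone deacetylases. These enzymes remove acetyl groups from histones, a mark found at active promoters.

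The DNA under 5 peaks is printed to show the sites on which the results turn: nhr-10, with a peak in every list, nhr-15, among the strongest SET-26 peaks, nhr-8 and nhr-1, with the strongest HCF-1 and HDA-1 peaks, all in glp-1(e2141), and nhr-236, bound in worms with a germline alone. Each stretch is WBcel235 sequence of RefSeq around a summit, with exons of neighbouring genes left off, and is written 5′ to 3′ in the direction of the gene. It holds 201 bases, or 152 at nhr-8. Capitals mark matches, on either strand, to 4 motifs of 6 bases: AGGTCA (the core site of many nuclear receptors), GATAAG (that of GATA factors), GAGAGA (a purine repeat) and TATAAA (the TATA box).
nhr-10: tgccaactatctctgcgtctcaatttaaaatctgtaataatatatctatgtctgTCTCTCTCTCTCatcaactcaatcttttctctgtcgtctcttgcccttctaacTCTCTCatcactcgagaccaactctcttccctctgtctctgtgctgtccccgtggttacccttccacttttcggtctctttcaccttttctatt
nhr-15: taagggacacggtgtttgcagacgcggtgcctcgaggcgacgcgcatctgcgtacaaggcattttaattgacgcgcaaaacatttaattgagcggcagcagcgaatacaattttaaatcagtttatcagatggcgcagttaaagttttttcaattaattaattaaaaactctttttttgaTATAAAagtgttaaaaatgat
nhr-8: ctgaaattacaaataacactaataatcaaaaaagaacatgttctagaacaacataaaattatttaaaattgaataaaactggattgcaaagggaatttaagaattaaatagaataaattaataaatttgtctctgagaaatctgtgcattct
nhr-1: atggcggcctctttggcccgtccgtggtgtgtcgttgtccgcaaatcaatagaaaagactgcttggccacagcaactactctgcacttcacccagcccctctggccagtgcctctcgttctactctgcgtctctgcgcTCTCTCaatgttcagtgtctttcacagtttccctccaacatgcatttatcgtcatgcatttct
nhr-236: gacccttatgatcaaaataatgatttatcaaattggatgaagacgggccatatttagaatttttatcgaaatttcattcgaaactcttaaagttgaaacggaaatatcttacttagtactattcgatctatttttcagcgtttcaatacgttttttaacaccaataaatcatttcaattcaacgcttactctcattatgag

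The stretch of nhr-10 (chrIII:7116732-7116932, minus strand, HDA-1 summit) held 5 matches to GAGAGA read on the opposite strand, 4 of them overlapping in 1 run. That of nhr-15 (chrV:311616-311816, plus strand, SET-26 summit) held 1 match to TATAAA. The stretch of nhr-1 (chrX:17513581-17513781, plus strand, HDA-1 summit) held 1 match to GAGAGA, also on the opposite strand. Those of nhr-8 (chrIV:7709737-7709888, plus strand, HCF-1 summit) and nhr-236 (chrIV:2331197-2331397, minus strand, SET-26 summit in wild type) held 0 matches.

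In germline-less glp-1(e2141) worms HDA-1 bound the most receptor genes. HDA-1 had a peak at 133 of 266 members (50%), against 40.5% of all protein-coding genes. HCF-1 had one at 113 members (42.5%), against 37.2% of all genes, and SET-26 at 92 members (34.6%), against 38.7%. Set against H3 with glp-1 RNAi the order was the same: HDA-1 bound 132 members (49.6%) against 40.1% of all genes, HCF-1 105 (39.5%) against 38.2%, and SET-26 82 (30.8%) against 38.7%. HCF-1 in glp-1(e2141) set against H3 bound 130 members (48.9%) against 43.8%. The share of members was above that of all genes in 8 of 8 HDA-1 lists, mutants included, and below it in 6 of 6 SET-26 lists. The HCF-1 lists were divided, with 4 above and 4 below.

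**Figure D1:**
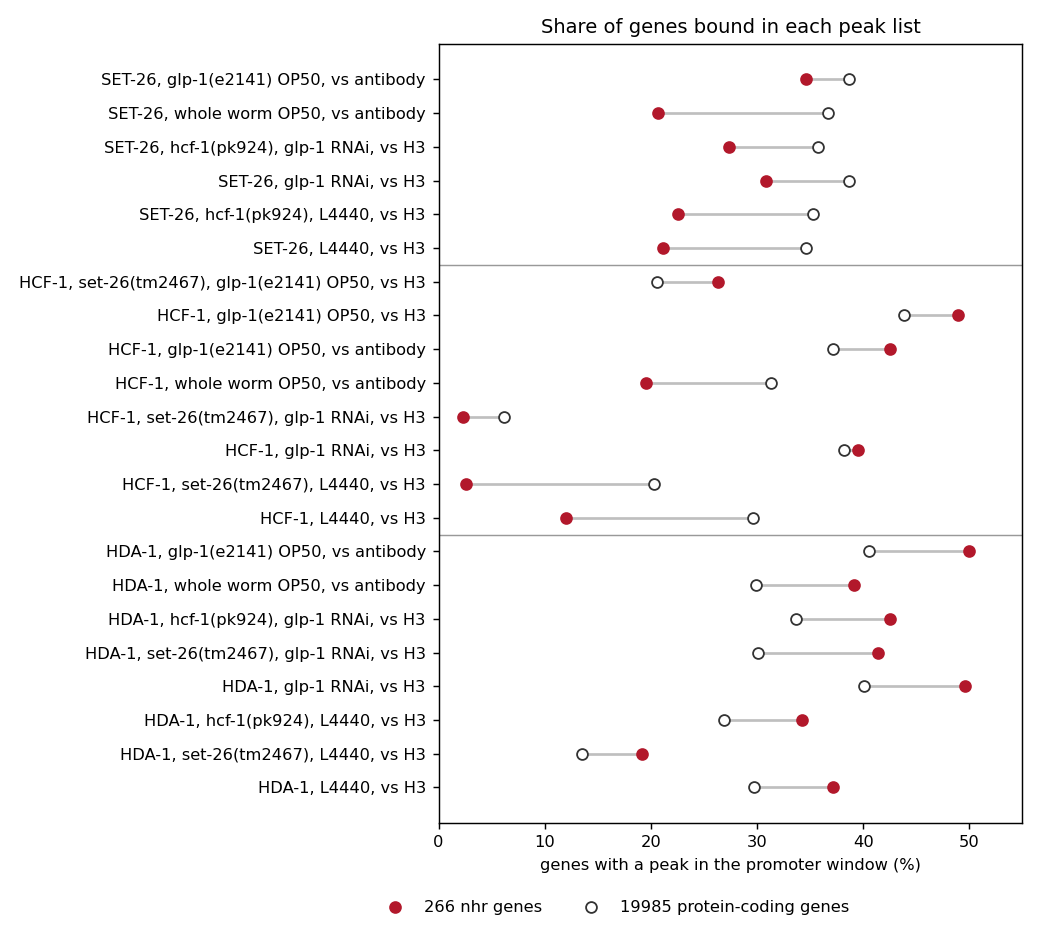
Share of genes with a peak in the promoter window (%, horizontal axis) in each of 22 peak lists, with filled points for the 266 nhr genes and open points for all 19985 protein-coding genes. The filled points lie right of the open ones in all 8 HDA-1 lists and left of them in all 6 SET-26 lists.

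Peaks at receptor genes were weak for SET-26 and HCF-1 and not for HDA-1. The authors' fold enrichment, the pileup at a summit over the local background of the control library, had a median of 2.37 over the 92 members bound by SET-26 in glp-1(e2141), against 4.11 over all bound genes. For HCF-1 the medians were 2.25 in members and 2.93 in all bound genes, and for HDA-1 2.96 in members and 2.70 in all bound genes. Peaks of at least 3-fold were found at 27 members bound by SET-26 (29.3%), 23 bound by HCF-1 (20.4%) and 61 bound by HDA-1 (45.9%), against 63.2%, 48.2% and 41% of all bound genes. Counting only such peaks, the HCF-1 share fell below that of all genes in that list, with 8.65% of members against 17.9% of genes, so the excess of HCF-1 members was not seen among these stronger peaks. The HDA-1 share stayed above, with 22.9% of members against 16.6% of genes.

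Receptor genes bound by any factor nearly always had HDA-1, with HDA-1 at 133 of the 138 members that had any factor in glp-1(e2141) (96.4%, against 81.7% of all genes with any factor). All 3 factors were found at 82 members (30.8%, against 28.5% of all genes), a difference that turned round with peaks of at least 3-fold (4.89%, against 9.26%). HCF-1 and HDA-1 without SET-26 were found at 30 (11.3%, against 3.96%). HDA-1 alone was found at 15 members (5.64%, against 6.23%), SET-26 with HDA-1 at 6 (2.26%, against 1.86%), SET-26 alone at 4 (1.5%, against 4.37%) and HCF-1 alone at 1, nhr-213 (0.376%, against 0.731%). SET-26 and HCF-1 without HDA-1, which held 797 genes or 3.99% genome-wide, was found at 0 of 266 members. That count did not carry over to glp-1 RNAi, where nhr-2, nhr-4 and nhr-280 had SET-26 and HCF-1 without HDA-1. Members bound by HDA-1 alone in glp-1(e2141) included nhr-25, the worm counterpart of the SF-1 and Ftz-F1 receptors that acts in moulting and epidermal development. Those with SET-26 and HDA-1 included nhr-40, a receptor needed for embryonic and muscle development, although HCF-1 against H3 had a peak there in the same worms (3.29-fold) and its SET-26 peak (1.78-fold) was found in 1 of 6 lists. Where all 3 factors bound a member in glp-1(e2141), a SET-26 peak overlapped an HDA-1 peak at 82 of 82 members (99.9% of all such genes) and an HCF-1 peak at 82 of 82 (99.6%). Their strongest summits lay a median of 28 bp (SET-26 and HDA-1), 36 bp (SET-26 and HCF-1) and 27 bp (HCF-1 and HDA-1) apart, against 29, 32 and 25 bp over all genes bound by all 3.

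**Figure D2:**
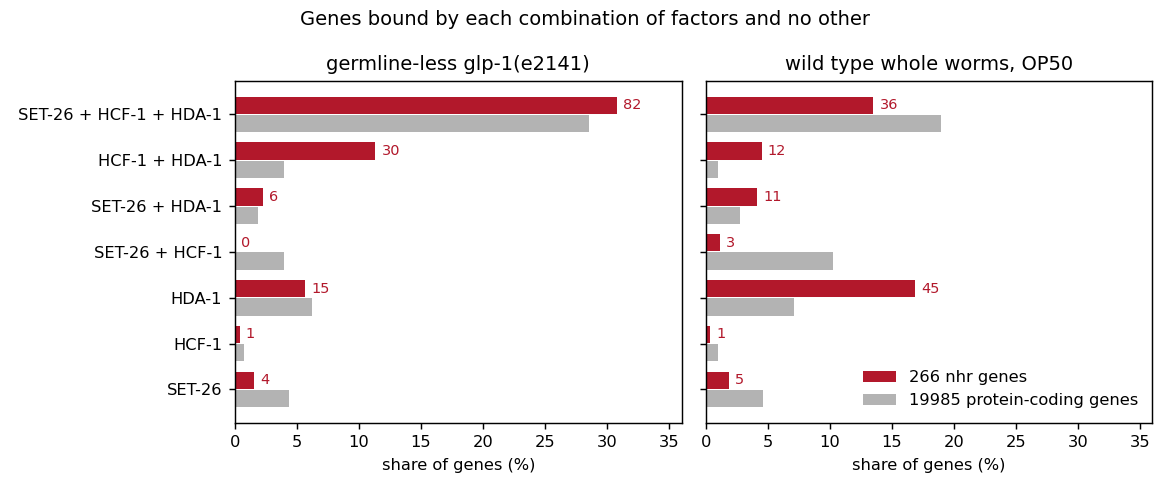
Share of genes (%, horizontal axis) bound by each combination of factors and no other, in germline-less glp-1(e2141) worms (left) and wild type whole worms (right), dark bars for the 266 nhr genes with their number beside the bar and light bars for all protein-coding genes. HCF-1 with HDA-1 and without SET-26 held 30 members without a germline and 12 in wild type, and HDA-1 alone 15 and 45.

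The receptors with the strongest peaks differed between the factors. In glp-1(e2141) the 8 highest SET-26 folds were those of nhr-47 (7.05), nhr-8 (6.38), nhr-15 (5.76), nhr-78 (5.53), nhr-136 (4.98), nhr-10 (4.73), nhr-154 (4.34) and nhr-86 (4.29). The 8 highest HCF-1 folds were those of nhr-8 (5.13), nhr-15 (4.77), nhr-47 (4.15), nhr-10 (3.99), nhr-119 (3.97), nhr-34 (3.65), nhr-184 (3.57) and nhr-97 (3.45). SET-26 and HCF-1 thus shared nhr-8, nhr-10, nhr-15 and nhr-47. The 8 highest HDA-1 folds were those of nhr-1 (12.2), nhr-105 (8.53), nhr-19 (7.43), nhr-34 (7.35), nhr-119 (7.30), nhr-48 (6.67), nhr-45 (6.38) and nhr-70 (6.32), none of which was among the 8 highest for SET-26. Over the 82 members with both peaks, SET-26 and HCF-1 folds ranked together with a Spearman correlation of 0.55, against 0.75 over 6489 genes. Over the 112 members bound by HDA-1 and HCF-1 it was 0.45, against 0.36 over 6483 genes. These correlations run across genes within pairs of merged libraries and carry no test.

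nhr-10, which in worms acts in the pathway that breaks down propionate when vitamin B12 is short, was the 1 member bound in all 22 lists, against 601 genes of 19985. Its folds in control worms were 4.73, 7.25, 5.71 and 4.54 for SET-26 in glp-1(e2141), wild type, glp-1 RNAi and L4440. For HDA-1 they were 5.91, 5.86, 8.55 and 4.30 in the same order. For HCF-1 against antibody the fold was 3.99 in glp-1(e2141), with 3.38 in wild type, and against H3 6.37 in glp-1(e2141), 4.55 with glp-1 RNAi and 3.03 on L4440. The strongest summits of the 22 lists lay between 1358 and 1402 bp upstream of the start of nhr-10, in the intergenic sequence printed above. nhr-1, the member of highest HDA-1 fold in glp-1(e2141), had HDA-1 folds of 12.2, 13.3, 16.3 and 11.0, against SET-26 folds of 2.80, 2.36, 3.38 and 1.85 in the same 4 settings. Its HDA-1 summits lay 371 to 382 bp upstream of the start in these lists.

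At nhr-8 the strongest summits of the factors lay at separate places. SET-26 and HCF-1 peaks still overlapped HDA-1 peaks there in glp-1(e2141), wild type, glp-1 RNAi and L4440 worms. nhr-8 is related to the vertebrate vitamin D and oxysterol receptors, and it acts in cholesterol balance and resistance to toxins. The strongest SET-26 and HCF-1 summits of the control lists lay 1177 to 1200 bp upstream of the start of nhr-8, in the stretch printed above. The HDA-1 summits lay between 105 bp upstream and 78 bp downstream of it, at the gene start. The SET-26 fold there was 6.38 in glp-1(e2141), 8.04 in wild type, 12.4 with glp-1 RNAi and 6.89 on L4440, against HDA-1 folds of 2.66, 2.57, 3.397 and 2.20. The upstream site lay nearer to the start of another protein-coding gene than to that of nhr-8. In set-26(tm2467) on L4440 the HCF-1 summit was still at the upstream site, 1196 bp from the start, with a fold of 3.44 in the mutant and 5.89 in control worms. In set-26(tm2467) glp-1(e2141) the remaining HCF-1 peak had its summit 71 bp upstream of the start, with a fold of 1.76.

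SET-26 and HDA-1 peaks at receptor genes sat closer to the gene start than at other bound genes, and in glp-1(e2141) the peaks of each factor were nearest to the receptor's own start more often. The median position of the strongest HDA-1 summit in glp-1(e2141) was -239 bp from the start in members and -376 bp in all bound genes. For SET-26 it was -216 bp in members and -353 bp in all bound genes, and for HCF-1 -342 and -348 bp. With a germline HCF-1 summits lay farther out in members, at -519 bp against -372 bp in wild type and -518 bp against -363 bp on L4440. The gap was smaller there for SET-26, at -342 bp against -381 bp in wild type and -334 bp against -357 bp on L4440. It was also smaller for HDA-1, at -385 bp against -411 bp and -364 bp against -408 bp. The member's own start was the nearest protein-coding start to its strongest summit for 118 of 133 members bound by HDA-1 (88.7%, against 68.3% of all bound genes), 96 of 113 bound by HCF-1 (85%, against 65.1%) and 80 of 92 bound by SET-26 (87%, against 62.8%). Of 110 SET-26 peaks at members, 79 had their summit in intergenic sequence (71.8%, against 53.3% of peaks in any gene's window), 6 in a coding exon (5.45%, against 16.1%), 6 in an intron and 19 in a UTR. Of 171 HDA-1 peaks at members, 129 were intergenic (75.4%, against 72.2%) and 1 was in a coding exon.

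Most of the family lies on chromosome V, and without a germline its genes there were bound more often than other genes of that chromosome. Chromosome V holds 166 members (62.4%), against 25% of all protein-coding genes. In glp-1(e2141), HDA-1 bound 83 of the 166 (50%, against 34.1% of all genes on V), HCF-1 69 (41.6%, against 27%) and SET-26 56 (33.7%, against 24.3%). On X, HDA-1 bound 18 of 23 members (78.3%, against 48.4% of all genes on X) and HCF-1 14 (60.9%, against 24.7%). The reverse held on chromosome I, where HDA-1 and HCF-1 each bound 4 of 22 members (18.2%, against 44.2% and 49.8% of genes there) and SET-26 3 (13.6%, against 55.9%). In glp-1(e2141) SET-26 thus bound members on V and X more often than other genes of the same chromosomes, although over the genome it bound members less often. On V this turned round in worms with a germline for SET-26, with 18.7% of members against 22% of genes in wild type and 18.1% against 21% on L4440, and for HCF-1, with 15.7% against 20.3% and 6.63% against 17.6%. It held for HDA-1, with 37.3% against 24.2% in wild type and 34.3% against 22.5% on L4440. On X, SET-26 bound 13% of members against 15.7% of genes on L4440, and 17.4% against 16.3% in wild type. HCF-1 on X bound 8.7% against 12.8% on L4440, and 26.1% against 8.82% in wild type. HDA-1 on X bound 73.9% against 34% on L4440, and 73.9% against 35.4% in wild type.

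**Figure D3:**
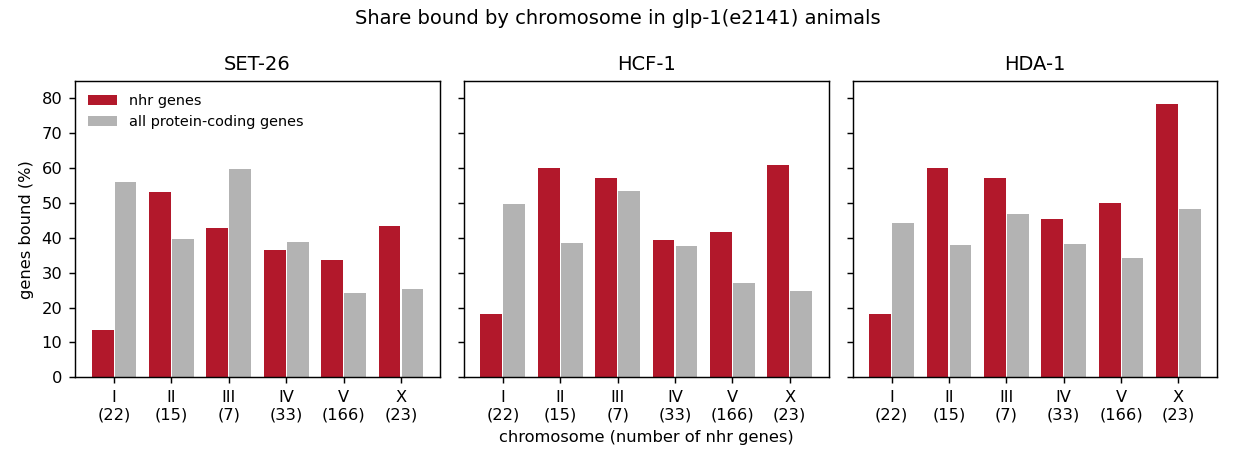
Share of genes bound (%, vertical axis) on each chromosome in glp-1(e2141) worms for SET-26, HCF-1 and HDA-1, dark bars for nhr genes (their number under each chromosome) and light bars for all protein-coding genes. Dark bars stand above light ones on V and X for each factor and far below them on chromosome I.

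Neighbouring receptor genes can share a peak. The 133 members bound by HDA-1 in glp-1(e2141) were bound by 171 distinct peaks, of which 12 lay in the windows of more than 1 member, as did 8 of 110 SET-26 peaks and 9 of 136 HCF-1 peaks. nhr-42 and nhr-107 shared peaks of all 3 factors, with a SET-26 fold of 2.48, an HCF-1 fold of 3.09 and an HDA-1 fold of 4.57. nhr-130 and nhr-212 likewise shared 1.51, 2.56 and 3.23. Of the 266 members, 150 had the start of another member within 10 kb. Each factor bound those members less often than the 116 others in worms with a germline. In wild type SET-26 bound 15.3% of the 150 and 27.6% of the 116, and HDA-1 33.3% and 46.6%. On L4440 the SET-26 shares were 16% and 27.6%, and those of HDA-1 31.3% and 44.8%. Such shares were not computed over all genes. HCF-1 on L4440 bound 6 of 150 (4%) and 26 of 116 (22.4%), and in wild type 16 of 150 (10.7%) and 36 of 116 (31%). In glp-1(e2141) HCF-1 bound 60 of 150 (40%) and 53 of 116 (45.7%), and with glp-1 RNAi 33.3% and 47.4%. SET-26 bound 35.3% and 33.6% in glp-1(e2141), and HDA-1 46.7% and 54.3%. Among members of chromosome V alone, the HCF-1 shares were 4.13% of 121 and 13.3% of 45 on L4440 and 12.4% and 24.4% in wild type. Without a germline the HCF-1 order on V was reversed, with 43.8% and 35.6% in glp-1(e2141) and 36.4% and 31.1% with glp-1 RNAi. SET-26 bound 16.5% and 22.2% on V on L4440, and 16.5% and 24.4% in wild type. HDA-1 bound 33.9% and 35.6% on V on L4440, and 38% and 35.6% in wild type.

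The role lists hold 4 to 9 receptors each, and their counts stand beside the shares bound in glp-1(e2141): by HDA-1 50% of all members and 40.5% of all genes, by HCF-1 42.5% and 37.2%, and by SET-26 34.6% and 38.7%. Of 9 members listed for metabolism and diet, HDA-1 and HCF-1 each bound 8 in glp-1(e2141) (88.9%) and SET-26 bound 5 (55.6%). nhr-8, nhr-10, nhr-64, nhr-69 and nhr-114 had all 3 factors, and nhr-31, nhr-62 and nhr-68 had HCF-1 and HDA-1. nhr-114 protects the germline on diets poor in tryptophan or vitamin B12, nhr-62 is needed for the longer life of diet-restricted worms, and nhr-68 acts with nhr-10 in propionate breakdown. nhr-68 lacked a SET-26 peak in glp-1(e2141) but had one in the other 5 SET-26 lists, with folds of 1.40 to 2.05. nhr-66 had no peak in any germline-less list. Of 6 members listed for stress, toxins and pathogens, HDA-1 bound 6 in each of its 4 control lists, HCF-1 6 and SET-26 4 (66.7%) in glp-1(e2141). HDA-1 folds there were 4.63 at nhr-57, a target of the hypoxia factor HIF-1, 6.38 at nhr-45, 4.16 at nhr-86, which senses a bacterial phenazine, 3.54 at nhr-14, 2.66 at nhr-8 and 2.46 at nhr-176, which induces a cytochrome P450 in response to a drug. SET-26 lacked a peak at nhr-14 and nhr-176 in that list.

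Of 8 members listed for development and moulting, HDA-1 bound 4 in glp-1(e2141) (50%, its share of all members) and SET-26 and HCF-1 2 each (25%). Against H3, HCF-1 bound 4 of the 8 in glp-1(e2141), against 43.8% of all genes, and with glp-1 RNAi HDA-1 bound 5 (62.5%, against 40.1%). nhr-60 and nhr-67, the worm counterpart of the tailless receptor, had no peak in any of the 22 lists. nhr-23, the counterpart of ROR and a driver of moulting, had HDA-1 peaks with glp-1 RNAi, at folds of 1.74 in set-26(tm2467), 1.91 in hcf-1(pk924) and 1.95 in control worms, and an HCF-1 peak of 1.60 in glp-1(e2141) against H3. nhr-85, the counterpart of Rev-erb and E75, had HDA-1 peaks alone, in 3 lists with folds of 1.55 to 1.84. nhr-6, the counterpart of the NR4A receptors, had HCF-1 and HDA-1 folds of 3.16 and 4.34 in glp-1(e2141) and no SET-26 peak in any list. nhr-2, which is expressed in the early embryo, had SET-26 peaks in 6 of 6 lists with folds of 1.48 to 3.88, HCF-1 peaks in 5 of 5 control lists with folds of 1.44 to 1.75, and HDA-1 peaks in 2 of 8 lists. The strongest SET-26 summit at nhr-2 moved between lists, from 656 bp downstream to 4655 bp upstream of its start. Among 9 receptors with counterparts in other animal phyla, 2 were bound by SET-26 (22.2%), 3 by HCF-1 (33.3%) and 4 by HDA-1 (44.4%) in glp-1(e2141), and 6 by HDA-1 with glp-1 RNAi (66.7%). Of these receptors, nhr-41, nhr-67 and nhr-91 had no peak in any list. nhr-48, related to nhr-8, had one of the strongest HDA-1 peaks, with folds of 6.67, 6.81, 10.01 and 6.42 in glp-1(e2141), wild type, glp-1 RNAi and L4440 worms. Of 4 members listed as close to HNF4, HDA-1 and HCF-1 bound all 4 (nhr-14, nhr-31, nhr-64 and nhr-69) in glp-1(e2141), and SET-26 bound nhr-64 and nhr-69.

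**Figure D4:**
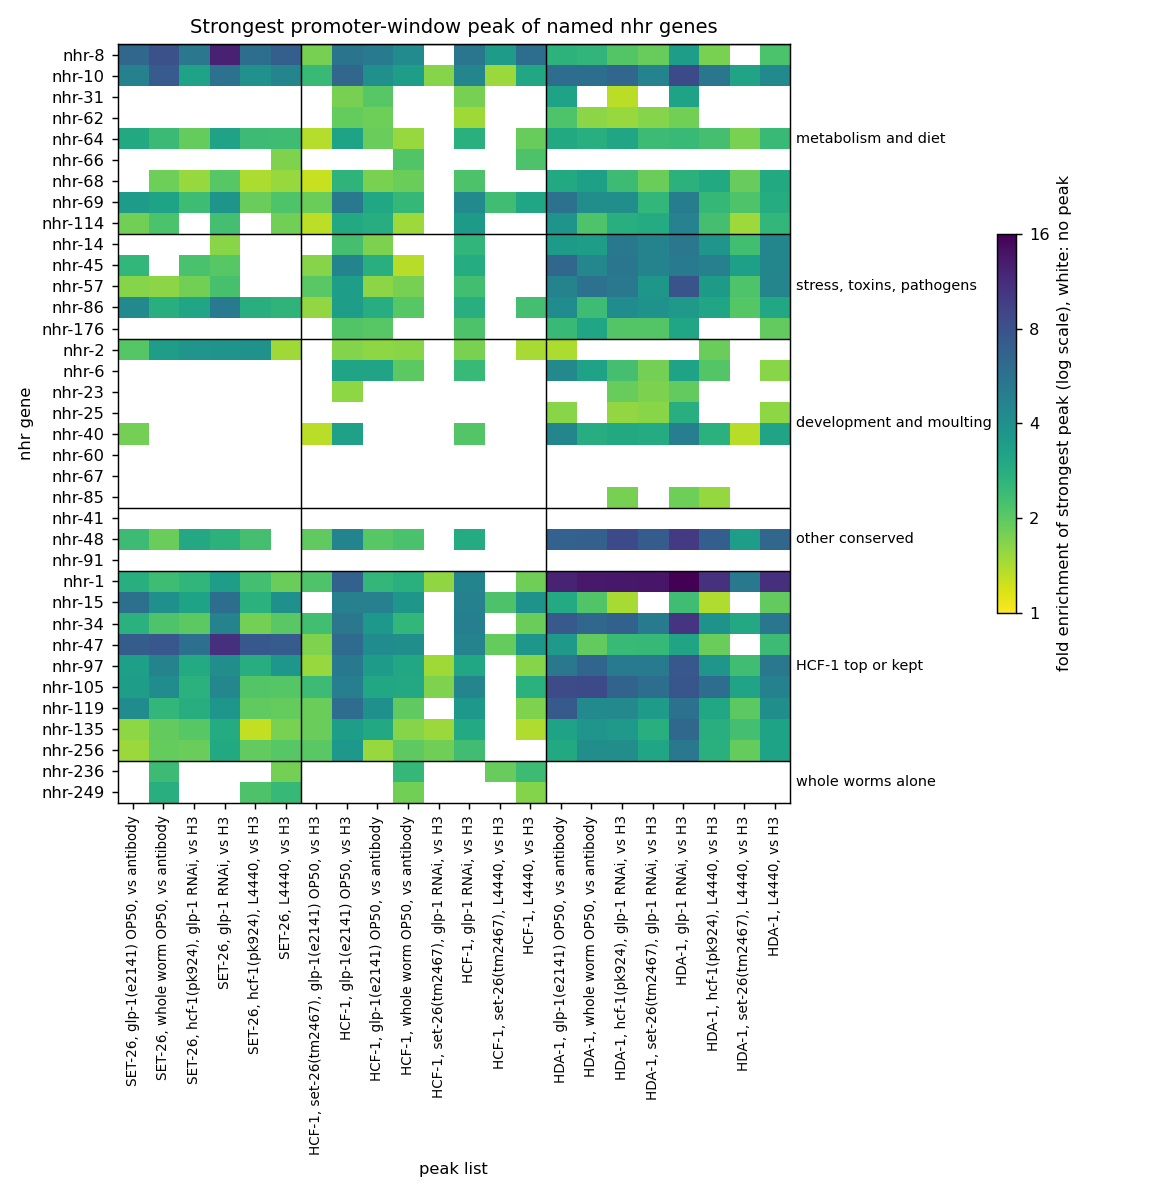
Fold enrichment of the strongest peak in the promoter window (colour on a log scale, white where no peak was called) for 36 named receptors (rows, grouped by role) in the 22 peak lists (columns, grouped by factor). nhr-10 has a peak in every column, nhr-60, nhr-67, nhr-41 and nhr-91 have none, and nhr-236 and nhr-249 have SET-26 and HCF-1 peaks in worms with a germline alone.

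HDA-1 bound 48 members in each of its 8 lists (18%, against 12.4% of all genes), SET-26 bound 41 in each of 6 (15.4%, against 29.6%) and HCF-1 bound 1 in each of 8 (0.376%, against 4.01%). Both SET-26 and HDA-1 bound 26 members in every list (9.77%, against 10.2% of all genes): nhr-1, nhr-3, nhr-10, nhr-21, nhr-34, nhr-35, nhr-56, nhr-64, nhr-69, nhr-70, nhr-76, nhr-78, nhr-84, nhr-86, nhr-97, nhr-105, nhr-119, nhr-132, nhr-134, nhr-135, nhr-142, nhr-154, nhr-182, nhr-190, nhr-243 and nhr-256. SET-26 but not HDA-1 did so at 15 members (5.64%, against 19.5%): nhr-2, nhr-8, nhr-15, nhr-22, nhr-47, nhr-101, nhr-104, nhr-109, nhr-122, nhr-133, nhr-136, nhr-153, nhr-184, nhr-232 and nhr-273. HDA-1 but not SET-26 did so at 22 members (8.27%, against 2.28%): nhr-14, nhr-17, nhr-19, nhr-32, nhr-40, nhr-42, nhr-45, nhr-48, nhr-57, nhr-58, nhr-68, nhr-71, nhr-107, nhr-114, nhr-130, nhr-131, nhr-143, nhr-173, nhr-179, nhr-206, nhr-212 and nhr-228. Every list here includes the mutants, and HDA-1 in set-26(tm2467) on L4440 bound the fewest members of the HDA-1 lists (51). Of the 15, nhr-8, nhr-22, nhr-47, nhr-101, nhr-104, nhr-122, nhr-133, nhr-136, nhr-153, nhr-184 and nhr-232 lacked HDA-1 in that list alone.

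Fewer receptor genes were bound where a germline was present, and HCF-1 changed most. HCF-1 had 113 members in glp-1(e2141), against 52 in wild type (19.5%, against 31.3% of all genes), and 105 with glp-1 RNAi and 32 on L4440 (12%, against 29.6%). SET-26 had 92 in glp-1(e2141), against 55 in wild type (20.7%, against 36.7%), and 82 with glp-1 RNAi and 56 on L4440 (21.1%, against 34.6%). HDA-1 had 133 in glp-1(e2141), against 104 in wild type (39.1%, against 29.9%), and 132 with glp-1 RNAi and 99 on L4440 (37.2%, against 29.7%). Whole animals were profiled, so binding in fewer cells and weaker binding in each cell cannot be told apart.

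Of the members HCF-1 bound without a germline, 43.4% were bound in wild type as well (49 of 113, against 71.6% of all genes bound in glp-1(e2141)), and 27.6% on L4440 (29 of 105, against 72%). SET-26 kept 56.5% in wild type (52 of 92, against 85.4%) and 63.4% on L4440 (52 of 82, against 85.6%). HDA-1 kept 75.9% (101 of 133, against 71.3%) and 75% (99 of 132, against 71.4%), so HDA-1 members were kept in whole worms about as often as other genes while SET-26 and HCF-1 members were kept less often. At members bound in both, glp-1(e2141) folds exceeded wild type ones at 36 of 52 (SET-26), 40 of 49 (HCF-1) and 79 of 101 (HDA-1), with median ratios of 1.26, 1.29 and 1.28. With glp-1 RNAi against L4440 it was higher at 52 of 52, 27 of 29 and 93 of 99, with median ratios of 1.60, 1.504 and 1.51. Over all genes those median ratios were 0.95, 1.20 and 1.29 on OP50 and 1.49, 1.24 and 1.40 on the RNAi bacteria. Fewer members also had all 3 factors in wild type, 36 of 266 (13.5%, against 19% of all genes). HDA-1 alone was then the largest class with 45 members (16.9%, against 7.14%), followed by HCF-1 with HDA-1 at 12 (4.51%, against 1.01%) and SET-26 with HDA-1 at 11 (4.14%, against 2.77%). SET-26 alone had 5 (1.88%, against 4.63%), SET-26 with HCF-1 3 (1.13%, against 10.3%) and HCF-1 alone 1 (0.376%, against 1.01%).

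Most receptors bound in whole worms were also bound without a germline, as were most genes. For SET-26 the share was 94.5% in wild type (against 90.1% of all genes) and 92.9% on L4440 (against 95.7%). For HCF-1 it was 94.2% (against 85%) and 90.6% (against 93.1%), and for HDA-1 97.1% and 100% (against 96.5% in both). The receptors bound in whole worms alone were 3 of 55 for SET-26 in wild type (nhr-68, nhr-236 and nhr-249, against 9.92% of all genes bound there). On L4440 they were 4 of 56 (nhr-38, nhr-66, nhr-236 and nhr-249, against 4.29%). For HCF-1 they were nhr-66, nhr-236 and nhr-249 in both settings, 3 of 52 in wild type (against 15%) and 3 of 32 on L4440 (against 6.89%). For HDA-1 they were nhr-210, nhr-241 and nhr-247 in wild type (3 of 104, against 3.48%) and 0 of 99 on L4440 (against 3.46%). nhr-236 had SET-26 folds of 2.38 in wild type and 1.78 on L4440, HCF-1 folds of 2.52 and 2.404, and no HDA-1 peak. The 4 summits fell 1643 to 1663 bp upstream of the start of nhr-236, in intergenic sequence. nhr-249 had SET-26 folds of 2.79 and 2.51 and HCF-1 folds of 1.81 and 1.66. nhr-66 had HCF-1 folds of 2.13 in wild type and 2.17 on L4440, with summits 524 and 521 bp upstream of its start. nhr-38 had its SET-26 peak, of 7.21-fold, in 1 list and with a summit 3197 bp upstream of the start, outside the window.

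Without SET-26, HCF-1 peaks were called at few receptor genes with glp-1 RNAi and on L4440, and at more in glp-1(e2141). With glp-1 RNAi, HCF-1 bound 6 members in set-26(tm2467) worms (2.26%, against 6.16% of all genes) and 105 in control worms. Of these 105, 6 kept a peak in the mutant (5.71%, against 15.4% of all bound genes), and 1 did where a mutant peak had to cover at least 50% of a control peak (0.952%, against 2.37%). In glp-1(e2141), HCF-1 bound 70 members in the mutant (26.3%, against 20.6% of all genes) and 130 in control worms, of which 67 kept a peak (51.5%, against 42.3%), or 32 under that stricter rule (24.6%, against 14.9%). On L4440 it bound 7 in the mutant (2.63%, against 20.3%) and 32 in control worms, of which 7 kept a peak (21.9%, against 68.3%). The merged HCF-1 libraries of glp-1(e2141) held 68.96 M tags in the mutant and 55.9 M in control worms, and those of glp-1 RNAi 35.2 M and 27.6 M, and the part of depth in this gap was not tested. The kept share also varied with the fold in control worms. On L4440, the kept share among genes of 3-fold or more in control worms was 5 of 5 members against 96% of all genes, and among those of 2 to under 3-fold 2 of 9 members (22.2%) against 53.4%. In glp-1(e2141) the same bins gave 72.3% of members against 59.9% of genes and 53.2% against 28.7%. With glp-1 RNAi they gave 4 of 20 members (20%) against 26.1% and 2 of 55 (3.64%) against 2.4%.

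The 6 receptors that kept HCF-1 in set-26(tm2467) with glp-1 RNAi were nhr-256, nhr-105, nhr-10, nhr-1, nhr-135 and nhr-97. Their mutant folds were 1.83, 1.71, 1.65, 1.59, 1.52 and 1.48, against 2.35, 4.51, 4.55, 4.58, 2.94 and 3.08 in control worms. The fold was lower in the mutant at 6 of 6, with a median ratio of 0.43, and 0.30 over all kept genes. The 8 members with the highest control folds and no mutant peak were nhr-8 (5.41), nhr-34 (4.83), nhr-15 (4.73), nhr-47 (4.61), nhr-69 (4.29), nhr-142 (3.84), nhr-119 (3.65) and nhr-281 (3.59). Of these, nhr-8, nhr-34, nhr-47, nhr-69, nhr-119 and nhr-142 had an HCF-1 peak in set-26(tm2467) glp-1(e2141), with mutant folds of 1.76, 2.31, 1.72, 1.86, 1.87 and 1.70, against control folds of 5.51, 5.33, 6.05, 5.24, 5.97 and 3.86. Folds are those of the strongest peak in the window of each list, which at nhr-8 lay at separate places in mutant and control worms. At nhr-69 the strongest HCF-1 peak of the control lists overlapped the window, but its summit lay outside, 2083 to 2161 bp upstream of the start. In glp-1(e2141) the fold was lower in the mutant at 66 of 67 kept members, with a median ratio of 0.53 and 0.38 over all kept genes. On L4440 it was lower at 7 of 7, among them nhr-8 (3.44 against 5.89), nhr-69 (2.34 against 3.14) and nhr-15 (2.18 against 3.90). New HCF-1 peaks in the mutant were found at 0 of 161 unbound members with glp-1 RNAi (against 0.462% of unbound genes), 3 of 136 in glp-1(e2141) (2.21%, against 3.75%) and 0 of 234 on L4440 (against 0.185%).

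**Figure D5:**
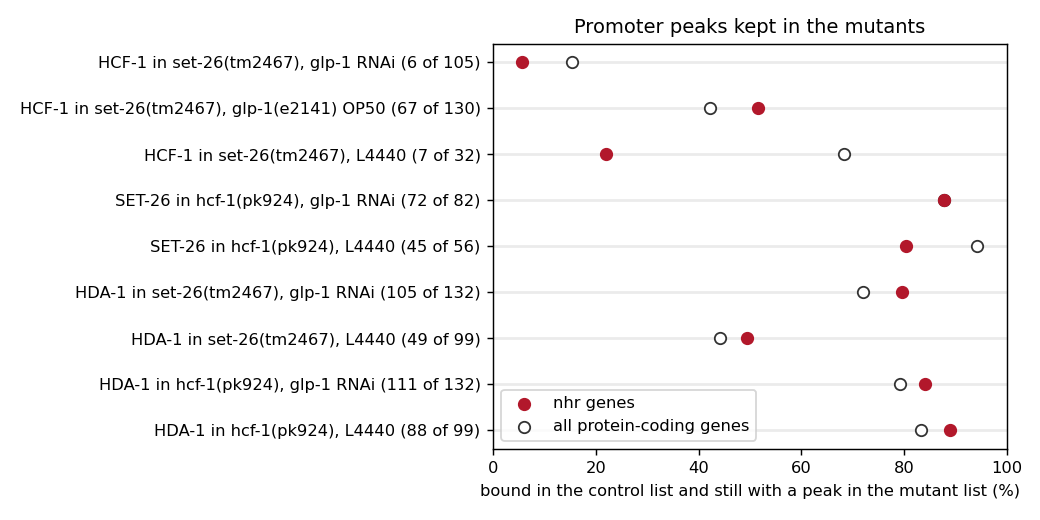
Share of genes bound in control worms that still had a peak in the mutant (%, horizontal axis) in 9 pairs of lists, filled points for nhr genes (kept and bound numbers beside each label) and open points for all protein-coding genes. HCF-1 in set-26(tm2467) spans 5.71% with glp-1 RNAi to 51.5% in glp-1(e2141) for nhr genes, and the lowest of the other 6 pairs is at 49.5%.

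SET-26 peaks were still called at most receptors without HCF-1. Of members of at least 3-fold in control worms, 34 of 34 kept a peak of any fold with glp-1 RNAi (against 98.6% of genes). On L4440 8 of 9 did (88.9%, against 99.5%). In the bin of 2 to under 3-fold 86.2% did with glp-1 RNAi (against 79.2%) and 91.3% on L4440 (against 95.2%). A mutant peak of at least 3-fold was kept at 12 of 34 (35.3%, against 73.5% of all genes) with glp-1 RNAi and 6 of 9 (66.7%, against 89.9%) on L4440. Control folds of kept members were lower, with medians of 2.905 and 2.16, against 6.268 and 4.491 over all kept genes. With glp-1 RNAi SET-26 bound 73 members in hcf-1(pk924) (27.4%, against 35.7% of all genes) and 82 in control worms, of which 72 kept a peak (87.8%, against 87.7%). On L4440 it bound 60 in the mutant (22.6%, against 35.3%) and 56 in control worms, of which 45 kept a peak (80.4%, against 94.1%). Folds were lower in the mutant at 64 of 72 kept members with glp-1 RNAi, with a median ratio of 0.67, and 0.61 over all kept genes. On L4440 they were lower at 21 of 45, with a median ratio of 1.01, and 0.94 over all kept genes. nhr-8 had a SET-26 fold of 5.33 in the mutant and 12.4 in control worms with glp-1 RNAi, and 5.85 and 6.89 on L4440. nhr-34 had 2.00 and 4.62 with glp-1 RNAi and 1.78 and 2.03 on L4440. SET-26 peaks were gained at 15 of 210 members on L4440 (7.14%, against 4.32% of unbound genes), among them nhr-48 at 2.26-fold, and at 1 of 184 with glp-1 RNAi, nhr-32 (0.543%, against 2.89%).

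HDA-1 kept a peak at most of its receptors in hcf-1(pk924), and in set-26(tm2467) with glp-1 RNAi, while in set-26(tm2467) on L4440 it kept 49 of 99. The share of members kept was above that of all genes in each of the 4 pairs. Counting only peaks of at least 3-fold, it was near that of all genes in 3 of 4. These were set-26(tm2467) with glp-1 RNAi (43.3%, against 43%) and hcf-1(pk924) with glp-1 RNAi (59.7%, against 59.6%) and on L4440 (69.7%, against 67%). In set-26(tm2467) on L4440 it was below (21.2%, against 26%). With glp-1 RNAi HDA-1 bound 110 members in set-26(tm2467) (41.4%, against 30.1% of all genes), 113 in hcf-1(pk924) (42.5%, against 33.7%) and 132 in control worms. Peaks were kept at 105 of 132 members in set-26(tm2467) (79.5%, against 71.9%) and at 111 of 132 in hcf-1(pk924) (84.1%, against 79.2%). On L4440 it bound 51 members in set-26(tm2467) (19.2%, against 13.5%), 91 in hcf-1(pk924) (34.2%, against 26.9%) and 99 in control worms, and 49 of 99 (49.5%, against 44.1%) and 88 of 99 (88.9%, against 83.2%) kept a peak. The median ratio of mutant to control fold over kept members was 0.69 in set-26(tm2467) and 0.79 in hcf-1(pk924) with glp-1 RNAi, and 0.59 and 0.91 on L4440. Over all kept genes it was 0.72, 0.82, 0.63 and 0.91 in the same order. HDA-1 peaks were gained at 5 of 134 members in set-26(tm2467) (3.73%, against 2.16% of unbound genes) and 2 of 134 in hcf-1(pk924) (1.49%, against 3.24%) with glp-1 RNAi, and at 2 of 167 (1.2%, against 0.59%) and 3 of 167 (1.8%, against 3.22%) on L4440. nhr-1 had HDA-1 folds of 13.5 in set-26(tm2467), 13.4 in hcf-1(pk924) and 16.3 in control worms with glp-1 RNAi, and 5.22, 10.8 and 11.0 on L4440.

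nhr-241, chosen after its values were seen, ran against that pattern. Its HDA-1 fold on L4440 was 24.4 in set-26(tm2467), 10.9 in hcf-1(pk924) and 9.18 in control worms, and with glp-1 RNAi 7.40, 5.91 and 1.55. It had no HDA-1 peak in glp-1(e2141) and 12.8-fold in wild type. No SET-26 or HCF-1 peak was called there in any list. The peaks lay in intergenic sequence, with summits 652 to 1373 bp upstream of the start of nhr-241, and the one in set-26(tm2467) on L4440 spanned chrV:18697536-18699987.

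The motif GAGAGA was more frequent at receptor promoters than at promoters of all genes. GATAAG and AGGTCA were so by smaller margins, and TATAAA was less frequent. Around SET-26 and HDA-1 summits AGGTCA was not more frequent. In the 300 bases from 250 upstream to 50 downstream of the start, GAGAGA or its complement was present in 80 of 266 members (30.1%), against 21.8% of all protein-coding genes. It was in 32 of the 82 members bound by all 3 factors in glp-1(e2141) (39%, against 29% of all genes bound by all 3) and in 30 of the 128 members bound by none (23.4%, against 18.1%). AGGTCA was in 29 members (10.9%, against 8.27%), GATAAG in 58 (21.8%, against 16.7%) and TATAAA in 77 (28.9%, against 38%). In the 201 bases around summits at members, GAGAGA was found at 44 of 110 SET-26 summits (40%, against 28.5% of summits of peaks in any gene's window), 49 of 136 HCF-1 summits (36%, against 28.6%) and 63 of 171 HDA-1 summits (36.8%, against 31.6%). AGGTCA was found at 5 SET-26, 9 HCF-1 and 7 HDA-1 summits (4.55%, 6.62% and 4.09%, against 5.3%, 5.72% and 6.51%). A match of letters is no evidence of a bound site.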

How the data were processed

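The study profiled SET-26, HCF-1 and HDA-1 by CUT&RUN in day 1 adult worms. Per the submitters' processing notes, reads were trimmed with Trim Galore 0.6.5 and aligned with Bowtie2 2.4.3 to WBcel235 (ce11). The authors merged replicates before peak calling (MACS2 2.1.4), which per the file headers used a q-value limit of 0.01, a fragment size of 200 bp and all duplicates kept, and scaled the larger library to the smaller. The deposited fold enrichment is the authors' ratio of summit pileup to local background, and the deposited −log10 q-value is that of their test. Control libraries differed between lists, so ratios of folds between settings, mutants or factors also carry the difference between controls. Neither value has a replicate error, and depth is known only for merged libraries.

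Entries with the same start and end were counted as 1 peak, with the fold of the strongest summit. Of several peaks in a window, the one of highest fold was used. Gene starts were those of 19985 protein-coding genes in Ensembl release 115, and sequences came from the RefSeq WBcel235 genome, in which 99.8% of annotated start codons read ATG. Python 3.11.15 with pandas and numpy was used, and the overlap rules were tested on simulated data. A kept member had any mutant peak in its window. Named receptors were the 8 of highest fold in each antibody list of glp-1(e2141), up to 8 kept and 8 lost for HCF-1 in set-26(tm2467) with glp-1 RNAi, those bound in every list of a factor, those bound in whole worms alone in both settings, and all 25 in the role lists. The members, role lists and rules were chosen with earlier results of these data known. The study's replicate-level test (DiffBind) needs reads not used here. The 3 receptor genes left out are not reported here. Alternatives were a window from 1000 bp upstream, a summit in the window, peaks of at least 3-fold, the nearest start on the same strand, and a mutant peak over at least 50% of a control peak.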

Additional observations from a re-analysis of the deposited data

How the results depend on the processing

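No paired analysis was possible because every list was called on merged replicates, and for the same reason no replicate could be left out. Counts of bound members stayed within 1.5 times with a summit in the window and with the nearest start (22 of 22 lists each), and with a window from 1000 bp upstream in 21 of 22. The exception was HCF-1 in set-26(tm2467) on L4440, with 3 bound and 3 kept, and with glp-1 RNAi the count was 4, at the limit. HDA-1 shares lay above those of all genes in 8 of 8 lists, and SET-26 shares below in 6 of 6, under each of these alternatives and with peaks of at least 3-fold. HCF-1 shares lay above in 4 of 8 lists, and in 0 of 8 with peaks of at least 3-fold.

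Peaks of at least 3-fold lowered every count by more than 1.5 times. SET-26 then bound 27 members in glp-1(e2141) (10.2%, against 24.5% of genes), 12 in wild type (4.51%, against 25.2%), 34 with glp-1 RNAi (12.8%, against 26.5%) and 9 on L4440 (3.38%, against 21.7%), and in hcf-1(pk924) 12 with glp-1 RNAi (4.51%, against 19.9%) and 9 on L4440 (3.38%, against 21.1%). HCF-1 bound 23 in glp-1(e2141) against antibody (8.65%, against 17.9%) and 47 against H3 (17.7%, against 22.9%), 5 in wild type (1.88%, against 14.5%), 20 with glp-1 RNAi (7.52%, against 21.2%) and 5 on L4440 (1.88%, against 16%). In set-26(tm2467) it bound 0 in glp-1(e2141) (against 0.495%), 0 with glp-1 RNAi (against 0.28%) and 1 on L4440 (0.376%, against 4.64%). HDA-1 bound 61 in glp-1(e2141) (22.9%, against 16.6%), 36 in wild type (13.5%, against 9.01%), 67 with glp-1 RNAi (25.2%, against 15.7%) and 33 on L4440 (12.4%, against 7.14%). In set-26(tm2467) it bound 32 with glp-1 RNAi (12%, against 6.92%) and 7 on L4440 (2.63%, against 1.95%), and in hcf-1(pk924) 44 (16.5%, against 9.94%) and 24 (9.02%, against 5.13%). All 3 factors bound 13 in glp-1(e2141) (4.89%, against 9.26%).

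Kept with peaks of at least 3-fold in both lists were, for HCF-1 in set-26(tm2467), 0 members with glp-1 RNAi (against 1.32% of genes), 0 in glp-1(e2141) (against 2.17%) and 1 on L4440 (20%, against 29%). For SET-26 in hcf-1(pk924) they were 12 with glp-1 RNAi (35.3%, against 73.5%) and 6 on L4440 (66.7%, against 89.9%). HDA-1 kept 29 with glp-1 RNAi (43.3%, against 43%) and 7 on L4440 (21.2%, against 26%) in set-26(tm2467), and 40 (59.7%, against 59.6%) and 23 (69.7%, against 67%) in hcf-1(pk924). With a mutant peak over at least 50% of a control peak, HCF-1 was kept in set-26(tm2467) at 1 with glp-1 RNAi, against 6 by any peak, and at 32 in glp-1(e2141), against 67. SET-26 kept in hcf-1(pk924) with glp-1 RNAi lay above all genes with any mutant peak in the window and below with a summit or a window from 1000 bp. The cause of these differences was not tested.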
